A study of Mus musculus with 7 samples.

Results

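The genes described here are 31 genes of the blood vessel wall in mouse brain, 27 of them known from endothelial cells and the blood-brain barrier and 4 from the mural cells around them. They were taken by symbol from a fixed list, and all 31 were found among the 24421 gene symbols of the count files. The lining of brain vessels differs from that of most other organs. Its cells are sealed by tight junctions, carry nutrient carriers and drug efflux pumps, and rely on pericytes and on Wnt signals from neural cells to stay closed.

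Whole cerebellum was profiled by RNA sequencing in C57BL/6 mice of a study on the ATXN1-CIC complex in spinocerebellar ataxia type 1, asking here how its genes differ after loss of Cic, which encodes a transcriptional repressor. The 4 CicKO libraries carry En1-Cre with both Cic alleles floxed (En1-Cre; Cicflox/flox), and the 3 Wildtype libraries have the genotype Cicflox/+, with 1 floxed allele and no Cre named. En1-Cre acts in descendants of the embryonic midbrain and hindbrain, whereas endothelial cells arise outside the neural tube, and the labels do not say in which vascular cells, if any, Cic was deleted. Effects of Cre and of Cic loss cannot be told apart, and age, sex and litter are not given.

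The libraries held 102653765 to 121285349 gene counts, of which the 31 genes took 69179 to 96769 counts. Values are CPM, read counts relative to the library total after scaling by the trimmed mean of M values. Cic was at 144 to 147 CPM in CicKO and at 216 to 257 CPM in Wildtype libraries (log2 fold change -0.66, edgeR adjusted p = 0.00256). Cerebellar markers were present in every library, with Gabra6 of granule neurons at 579 to 725 CPM in CicKO and 707 to 843 CPM in Wildtype libraries. CicKO 3 and Wildtype 3 stood apart by their choroid plexus content. The summed level of 10 choroid plexus markers was 12120 CPM in CicKO 3 and 209 to 308 CPM in the other CicKO libraries, against 8353 CPM in Wildtype 3 and 241 to 366 CPM in the other Wildtype libraries. Fewer cells of a type and less RNA per cell cannot be told apart in such bulk samples.

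No vascular gene passed the test across all genes, while 28 of the 31 had a positive log2 fold change. In edgeR 0 of 31 were called higher and 0 lower at an adjusted p below 0.05, where 1.25% of the 16905 tested genes were called higher and 0.828% lower (2.08% in either direction). The smallest adjusted p was 0.157, for Slco1a4. At an unadjusted p below 0.05, 5 of 31 (16.1%) were higher and 0 lower, against 8.06% and 8.16% of all tested genes. The 5 were Kdr, Esam, Sox17, Slco1a4 and Notch3. DESeq2 called 1 higher (Slco1a4) and 0 lower, against 3.95% and 2.92% of the 17033 genes to which it gave an adjusted p. The edgeR count of 5 moved to 1 without Wildtype 2, 2 without CicKO 4, 3 without CicKO 1, 8 without CicKO 3 and 10 without Wildtype 1, and to 8 with the replicate block. The median log2 fold change of the 31 was 0.20 (quartiles 0.11 and 0.25), and that of all tested genes was 0.00, with 48.8% of them positive. The count of 28 positive genes moved to 24 without Wildtype 2, 26 without CicKO 3 and 31 without Wildtype 1. The 31 genes share vessels and libraries, so their signs are not separate results. Without CicKO 3 and Wildtype 3 together, 0 of 31 were called and the median was 0.21. The 95% intervals of the fold changes lay within 2-fold in either direction for all 31 genes and within 1.5-fold for 20 of them, before any allowance for the number of genes.

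**Figure D1:**
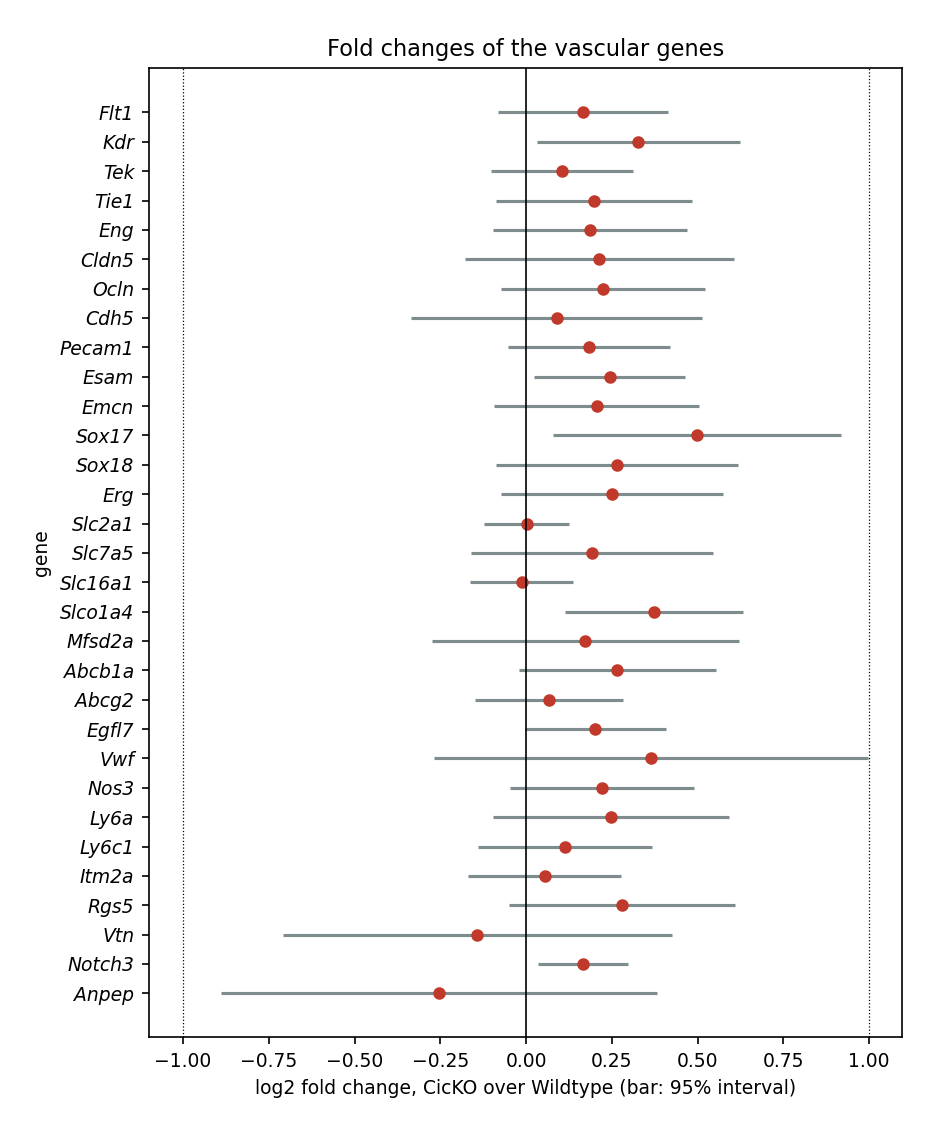
Log2 fold change of each vascular gene, CicKO over Wildtype, with its 95% interval from the edgeR fit (n = 4 and 3); dotted lines mark 2-fold. Points run from -0.25 (Anpep) to 0.50 (Sox17), and 28 of 31 lie above 0.

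The members span a wide range of levels. Per kilobase of exon, Vtn was the most abundant, at 34.5 ± 3.65 CPM per kb in CicKO and 38.1 ± 14.8 in Wildtype libraries (SD, n = 4 and 3). Slc7a5, Itm2a, Slc2a1, Ly6a and Ly6c1 followed at 18.3 to 26.7 CPM per kb in CicKO and 16.9 to 23.4 in Wildtype libraries. At the low end were Sox17 (0.968 ± 0.203 and 0.686 ± 0.0975 CPM per kb) and Kdr (0.937 ± 0.132 and 0.747 ± 0.0662 CPM per kb). Several of the abundant ones are not specific to endothelium in brain, since astrocytes also express Slc2a1, oligodendrocytes Slc16a1 and neural cells Slc7a5. All 31 passed the filter on low counts, and the smallest count of any of them in any library was 236 (Sox18).

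**Figure D2:**
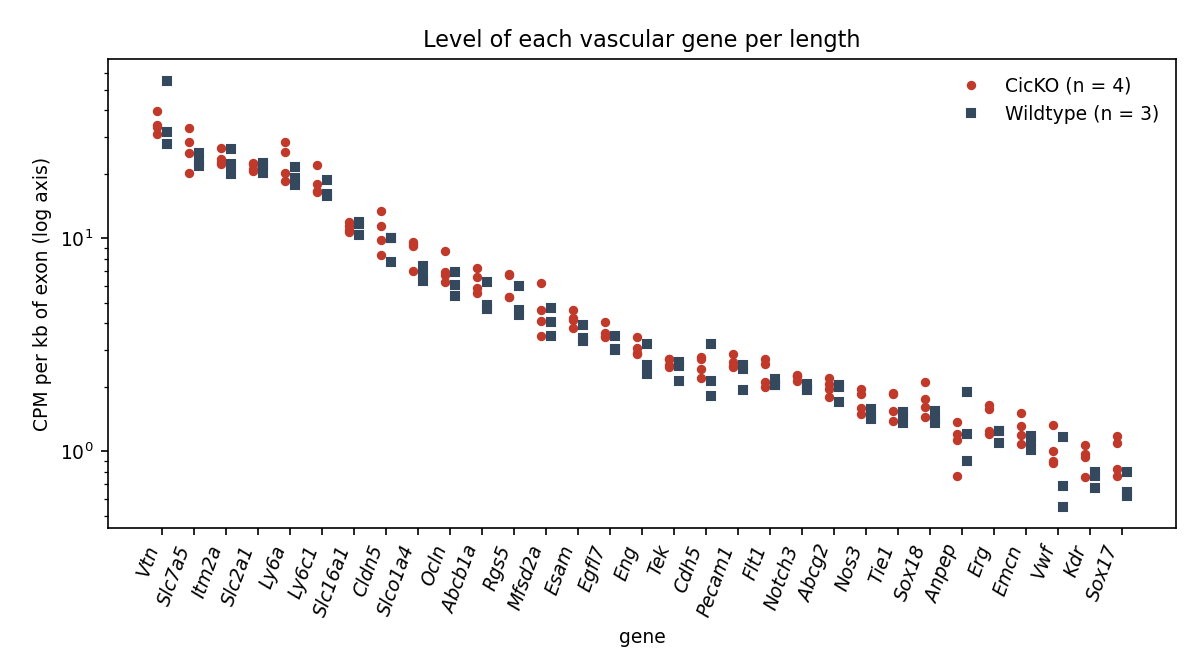
Level of each vascular gene per library in CPM per kilobase of exon on a log axis, ordered by the Wildtype mean. Vtn is at the top with 1 Wildtype library far above the rest, and the groups overlap for all genes but Notch3.

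The receptors for vascular growth factors had log2 fold changes of 0.10 to 0.33, with 0 of 5 called. Kdr, the main signalling receptor for VEGF-A, was at 9.72, 6.86, 8.49 and 8.78 CPM in CicKO 1 to 4, against 7.24, 6.08 and 6.92 CPM in Wildtype 1 to 3. CicKO 2 lay inside the Wildtype range and the other CicKO libraries above it (fold 1.25, log2 fold change 0.33, SE 0.130, adjusted p = 0.263 in edgeR). Flt1, a VEGF receptor that can also act as a decoy, had 36.7, 28.5, 27.1 and 34.8 CPM in CicKO and 29.6, 27.8 and 27.7 CPM in Wildtype libraries, with CicKO 1 and 4 high and the groups overlapping. Its log2 fold change was 0.17, or 0.09 without CicKO 1 and 0.11 with the replicate block. The angiopoietin receptor Tek averaged 12.3 ± 0.576 CPM in CicKO and 11.5 ± 1.23 CPM in Wildtype libraries, and its partner Tie1 8.19 ± 1.18 and 7.14 ± 0.418 CPM. Eng, a coreceptor for BMP9 and TGF-beta, averaged 12.4 ± 1.09 CPM in CicKO and 10.9 ± 1.88 CPM in Wildtype libraries (adjusted p = 0.507).

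Junction and surface genes gave 0 of 6 calls, with log2 fold changes of 0.09 to 0.24. Cldn5, the dominant claudin of the barrier on chromosome 16 (18776847 to 18778262 in mm10), was at 19.1, 13.9, 11.8 and 16.1 CPM in CicKO libraries, against 14.3, 14.2 and 10.9 CPM in Wildtype libraries. Both the 3rd CicKO and the 3rd Wildtype library were lowest in their group, and the groups overlapped (log2 fold change 0.21, 95% interval -0.18 to 0.61, adjusted p = 0.584). The log2 fold change of Cldn5 was 0.09 without CicKO 1 and 0.10 without Wildtype 3. Ocln, the tight junction protein occludin, was at 28.5, 26.4, 36.7 and 29.4 CPM in CicKO and 25.5, 22.6 and 29.5 CPM in Wildtype libraries. Both libraries numbered 3 were highest in their group for Ocln, as they were for choroid plexus markers, and the part of that tissue in the level was not tested. The log2 fold change of Ocln was 0.22 with all libraries and without both of them, but 0.12 without CicKO 3 alone, 0.14 without Wildtype 2 and 0.33 without Wildtype 3 alone. Esam, an adhesion molecule of endothelial tight junctions, had 11.9, 12.2, 10.9 and 13.2 CPM in CicKO and 11.3, 9.47 and 9.77 CPM in Wildtype libraries (log2 fold change 0.24, SE 0.0965, adjusted p = 0.262). The adhesion gene Pecam1 averaged 16.3 ± 1.12 CPM in CicKO and 14.4 ± 1.98 CPM in Wildtype libraries, and the sialomucin Emcn 6.91 ± 1.03 and 5.99 ± 0.448 CPM. Cdh5, the VE-cadherin of adherens junctions, was at 11.6, 9.32, 10.3 and 11.4 CPM in CicKO libraries, against 13.4, 7.66 and 8.98 CPM in Wildtype libraries. The CicKO libraries lay between Wildtype 1 and the other Wildtype libraries, and the log2 fold change of 0.09 turned to -0.07 without Wildtype 2.

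The promoters of the members were searched for motifs of CIC and of ETS factors, the family of the member Erg. RefSeq windows on GRCm38.p6 were present for 22 of the 31 genes, giving 30 windows of 250 bases before a start. TGAATGAA or TGAATGGA, octamers bound by CIC, occurred on either strand in 0 of the 30 windows, against 2.07% of 32851 windows of all genes. Other forms of the CIC site were not searched. At a share of 2.07%, 30 windows are too few for a 0 to mean that CIC sites are absent. AGGAAGT or CGGAAGT, which hold the ETS core, occurred on either strand in 7 of the 30 windows (23.3%), against 12.2% of all windows. The 7 windows belong to only 5 genes, Flt1, Eng, Abcg2, Egfl7 and Ly6c1. Windows of the same gene are not separate units, and the ETS shares were not compared by a test. A match is only a run of letters and was not tied to any change in level. The windows of Cldn5, the defining tight junction gene, and of Flt1 and Eng are shown 5′ to 3′ with the ETS letters in capitals. They are chr16:18776597-18776846 on the plus strand (Cldn5), chr5:147726012-147726261 on the minus strand (Flt1) and chr2:32646345-32646594 on the plus strand (Eng). In Flt1 and Eng the match begins 53 bases before the start, as AGGAAGT in Flt1 and as its reverse complement in Eng, and Cldn5 has none.
Cldn5: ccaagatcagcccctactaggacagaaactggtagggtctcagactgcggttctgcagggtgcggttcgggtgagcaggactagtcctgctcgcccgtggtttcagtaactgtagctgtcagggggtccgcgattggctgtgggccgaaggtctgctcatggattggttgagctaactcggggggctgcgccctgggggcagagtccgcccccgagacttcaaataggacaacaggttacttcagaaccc
Flt1: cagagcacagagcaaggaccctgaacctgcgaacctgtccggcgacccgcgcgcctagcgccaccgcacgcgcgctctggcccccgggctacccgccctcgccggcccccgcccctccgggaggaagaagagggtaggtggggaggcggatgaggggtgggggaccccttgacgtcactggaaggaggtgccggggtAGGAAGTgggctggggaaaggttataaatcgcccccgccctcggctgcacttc
Eng: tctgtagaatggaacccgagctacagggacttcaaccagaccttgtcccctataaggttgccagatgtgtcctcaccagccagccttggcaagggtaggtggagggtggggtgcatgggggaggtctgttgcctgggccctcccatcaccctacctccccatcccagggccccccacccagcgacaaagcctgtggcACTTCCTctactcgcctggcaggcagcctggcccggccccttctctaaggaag

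The endothelial transcription factors had the highest median log2 fold change of the 7 role groups, 0.27, with 0 of 3 called. Sox17, which acts in arterial identity and in Wnt-dependent barrier formation, was at 3.67, 3.93, 5.21 and 5.67 CPM in CicKO libraries, against 3.07, 2.94 and 3.80 CPM in Wildtype libraries. CicKO 2, 3 and 4 were above all Wildtype libraries, while CicKO 1 lay below Wildtype 3 (fold 1.41, log2 fold change 0.50, 95% interval 0.08 to 0.92, adjusted p = 0.232 in edgeR). Its relative Sox18 averaged 2.82 ± 0.463 CPM in CicKO and 2.34 ± 0.158 CPM in Wildtype libraries. Erg, an ETS factor that maintains endothelial identity, averaged 4.93 ± 0.780 CPM in CicKO and 4.14 ± 0.294 CPM in Wildtype libraries (adjusted p = 0.433). Of the Sox17 exon length 16.8% overlaps another annotated gene, and strand was not given.

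Barrier transporters ranged from no difference to the smallest p of the set. Slco1a4, which encodes the organic anion carrier Oatp1a4 on chromosome 6 (141805440 to 141856199), was at 61.7, 45.1, 60.4 and 59.2 CPM in CicKO libraries, against 43.2, 40.4 and 47.5 CPM in Wildtype libraries. CicKO 2 alone lay within the Wildtype range, and the other CicKO libraries were above it (fold 1.29, log2 fold change 0.37, SE 0.114). The edgeR adjusted p of Slco1a4 was 0.157 with all libraries, 0.0490 under the replicate block, in which CicKO 4 has no partner and does not contribute, and 0.0355 without CicKO 2. DESeq2 gave an adjusted p of 0.0278, and over all alternatives the adjusted p ran from 0.0278 to 0.385.

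The glucose carrier Slc2a1, known as GLUT1, was nearly the same in both groups, at 72.3, 74.5, 78.2 and 79.3 CPM in CicKO and 79.2, 71.0 and 77.8 CPM in Wildtype libraries. Its 95% interval was narrow, -0.12 to 0.13 on the log2 scale. Slc16a1, the lactate carrier MCT1, averaged 49.8 ± 2.30 CPM in CicKO and 50.2 ± 3.94 CPM in Wildtype libraries (95% interval -0.16 to 0.14). The large amino acid carrier Slc7a5 varied more, with 123, 93.6, 75.2 and 105 CPM in CicKO and 93.7, 85.5 and 81.4 CPM in Wildtype libraries, so that the CicKO range enclosed the Wildtype range. Of the efflux pumps, Abcb1a, one of the P-glycoprotein genes, averaged 34.6 ± 4.21 CPM in CicKO and 28.8 ± 4.58 CPM in Wildtype libraries (log2 fold change 0.27, adjusted p = 0.344). Abcg2, the breast cancer resistance protein, averaged 16.4 ± 1.45 and 15.7 ± 1.52 CPM (95% interval -0.15 to 0.28). Mfsd2a, a lysophospholipid carrier that limits transcytosis in endothelium, was at 7.84, 10.4, 13.9 and 9.19 CPM in CicKO and 9.08, 7.80 and 10.6 CPM in Wildtype libraries. Its highest library in each group was again the one numbered 3.

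Secreted and enzyme genes of the endothelium had 0 of 3 calls. Vwf, the clotting protein von Willebrand factor stored in endothelial granules, varied within both groups, at 21.4, 14.2, 14.5 and 16.2 CPM in CicKO and 18.7, 11.1 and 8.84 CPM in Wildtype libraries. Wildtype 1 lay above 3 of the 4 CicKO libraries, and the log2 fold change of 0.36 (95% interval -0.27 to 1.00) was 0.74 without that library, 0.22 without CicKO 1 and 0.15 without Wildtype 3, with no call in any of these. With the replicate block it was 0.42, with an SE of 0.106 in place of 0.270 (adjusted p = 0.0835 in edgeR). Egfl7, a secreted protein of the vessel wall, averaged 13.1 ± 1.01 CPM in CicKO and 11.4 ± 0.949 CPM in Wildtype libraries (adjusted p = 0.318 in edgeR). Nos3, the endothelial nitric oxide synthase, averaged 7.16 ± 0.891 CPM in CicKO and 6.14 ± 0.372 CPM in Wildtype libraries, and 32.3% of its exon length overlaps other annotated genes.

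Of the remaining membrane proteins, Ly6a, the GPI-anchored antigen Sca-1, was at 30.6, 22.6, 24.3 and 34.3 CPM in CicKO and 26.0, 23.1 and 21.5 CPM in Wildtype libraries. CicKO 1 and CicKO 4 were above all Wildtype libraries, and CicKO 2 and CicKO 3 were within their range (log2 fold change 0.25, adjusted p = 0.465). Ly6c1 had its highest value in CicKO 4 as well (36.9 CPM, against 26.6 to 31.5 CPM in Wildtype libraries). Ly6c1 has a close copy, Ly6c2, so reads shared with it could not be assigned with certainty. Itm2a, a membrane protein used as a marker of brain endothelium, averaged 41.6 ± 3.34 CPM in CicKO and 40.1 ± 5.43 CPM in Wildtype libraries.

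The mural cell genes did not follow one direction, with log2 fold changes of -0.25 to 0.28 and 0 of 4 called. Notch3, the receptor of vascular smooth muscle and pericytes on chromosome 17 (32120820 to 32166852), was the only one of the 31 genes whose groups did not overlap. It was at 18.4, 18.3, 18.5 and 17.3 CPM in CicKO libraries, against 16, 15.7 and 16.7 CPM in Wildtype libraries. Every CicKO library was above every Wildtype library by a small step (fold 1.12, log2 fold change 0.17, SE 0.0577, adjusted p = 0.204 in edgeR). That is 1 gene of 31 (3.23%) against 7.06% of all tested genes, and 0 of 31 lay wholly below, against 8.36%. Rgs5, a signalling regulator of pericytes, was at 31, 24.1, 24.1 and 30.8 CPM in CicKO and 19.8, 20.9 and 27.3 CPM in Wildtype libraries.

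Vtn, which encodes the adhesive matrix protein vitronectin, was at 80.4, 62.8, 67.9 and 69.4 CPM in CicKO libraries, against 112, 56.1 and 64.2 CPM in Wildtype libraries. Wildtype 1 alone was far above the rest. The peptidase gene Anpep, a pericyte marker also known as CD13, had the same outlying library, with 4.68, 3.15, 5.67 and 4.99 CPM in CicKO and 7.82, 3.75 and 4.97 CPM in Wildtype libraries. The log2 fold changes of Vtn and Anpep were -0.14 and -0.25 with all libraries and 0.23 and 0.09 without Wildtype 1, so the negative signs rested on that library.

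The spread among libraries was shared by many members. CicKO 1 and CicKO 4 held the highest value of 23 of the 31 genes, and Wildtype 2 and Wildtype 3 the lowest value of 27. The median log2 ratio of the 31 genes to their Wildtype mean was 0.22, 0.06, 0.09 and 0.30 in CicKO 1 to 4, against 0.10, -0.11 and -0.06 in Wildtype 1 to 3. Wildtype 1 was above CicKO 2 and CicKO 3 by this measure, so the groups overlapped. CicKO 1 to 3 were each above the equally numbered Wildtype library, but no label says that equal numbers are pairs. Summed over 10 endothelial identity genes, the level was 151, 124, 122 and 144 CPM in CicKO libraries, against 130, 116 and 111 CPM in Wildtype libraries. Here too CicKO 2 and CicKO 3 were below Wildtype 1, so the groups overlapped.

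**Figure D3:**
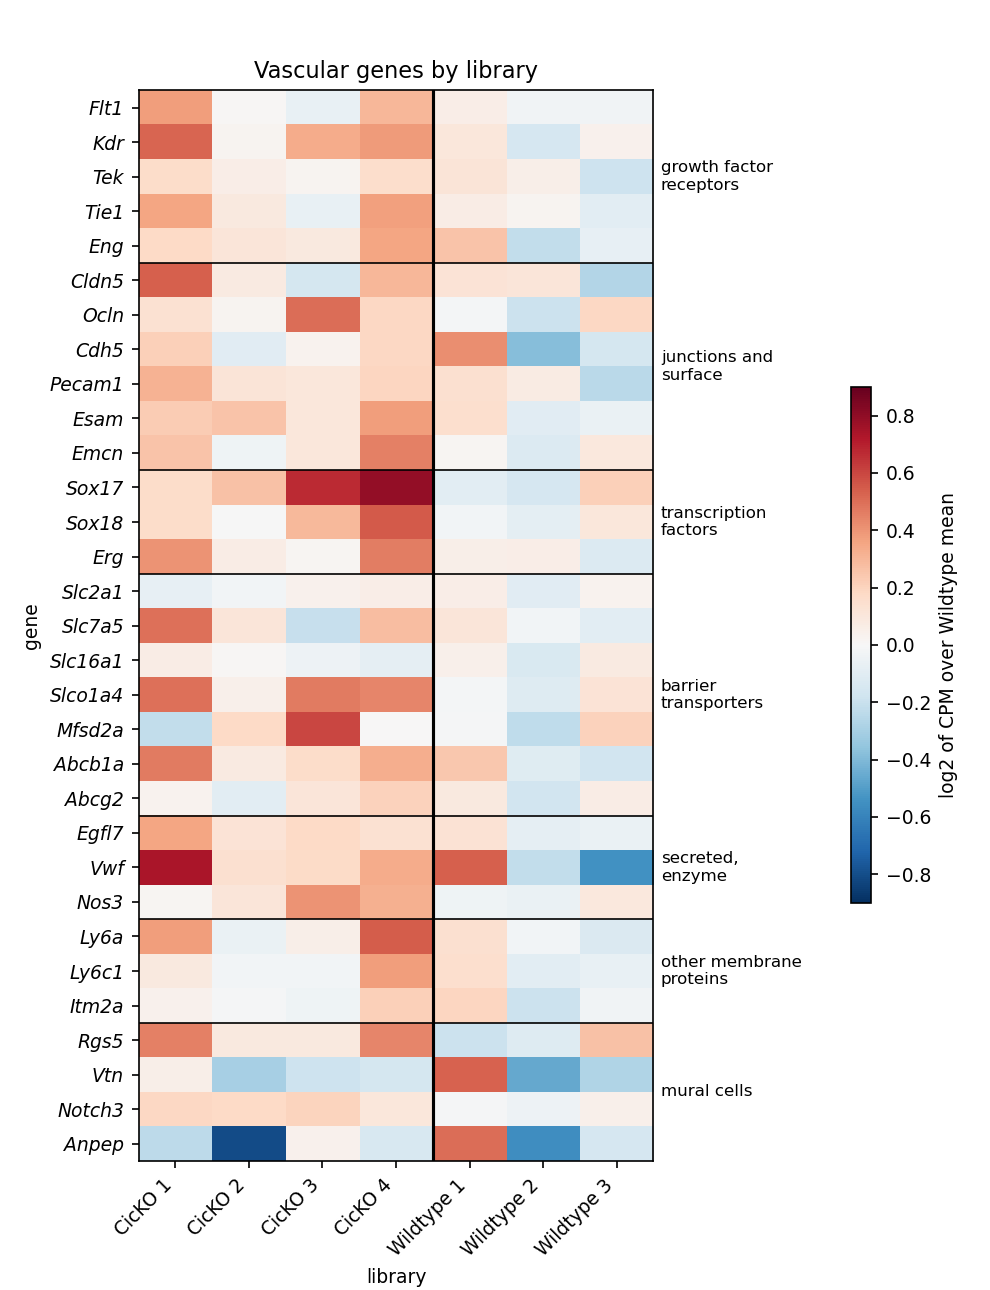
Log2 ratio of each vascular gene in each library to its Wildtype mean, with genes ordered by role and CicKO libraries left of the line. CicKO 1 and CicKO 4 are high over most endothelial genes, and Wildtype 1 stands out for Vtn, Anpep, Vwf and Cdh5.

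Other tissue and response markers also differed among the libraries, and the libraries highest for them differed from list to list. The 8 interferon response genes, all 8 of which were detected, summed to 309, 148, 176 and 265 CPM in CicKO libraries, against 113, 111 and 110 CPM in Wildtype libraries. In edgeR 0 of these 8 were called, against 2.08% of all tested genes in either direction. At an unadjusted p below 0.05 in edgeR, 8 were higher and 0 lower, against 8.06% and 8.16% of all tested genes. DESeq2 called 6 higher and 0 lower, against 3.95% and 2.92% of the 17033 genes to which it gave an adjusted p. CicKO 1 and CicKO 4 were thus the highest for interferon genes and for the vascular genes alike. The 9 markers of meninges and perivascular fibroblasts summed to 214, 166, 402 and 204 CPM in CicKO libraries, against 373, 151 and 353 CPM in Wildtype libraries, with Wildtype 1, Wildtype 3 and CicKO 3 high. Wildtype 1, the highest library for Vtn and Anpep, was also the highest for Dcn, a fibroblast proteoglycan, which was at 26.3 to 46.5 CPM in CicKO and at 59.6, 25.7 and 50.9 CPM in Wildtype libraries. The 8 microglia markers summed to 183 to 258 CPM in CicKO and 214 to 226 CPM in Wildtype libraries. In the meningeal, microglia and choroid plexus lists edgeR called 0 genes, against 2.08% of all tested genes. In these lists 0 passed an unadjusted p below 0.05, against 8.06% of all tested genes higher and 8.16% lower. DESeq2 called 0 in the meningeal and microglia lists, and it gave no adjusted p for 8 of the 10 choroid plexus genes. Of 5 cerebellar markers 1 was called, against 2.08% of all tested genes. This was Gdf10 of Bergmann glia, which averaged 155 ± 5.77 CPM in CicKO and 232 ± 14.8 CPM in Wildtype libraries (adjusted p = 0.00256). No defining marker of these lists was at 0. The part of interferon response, meningeal or choroid plexus content in the vascular levels was not tested.

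**Figure D4:**
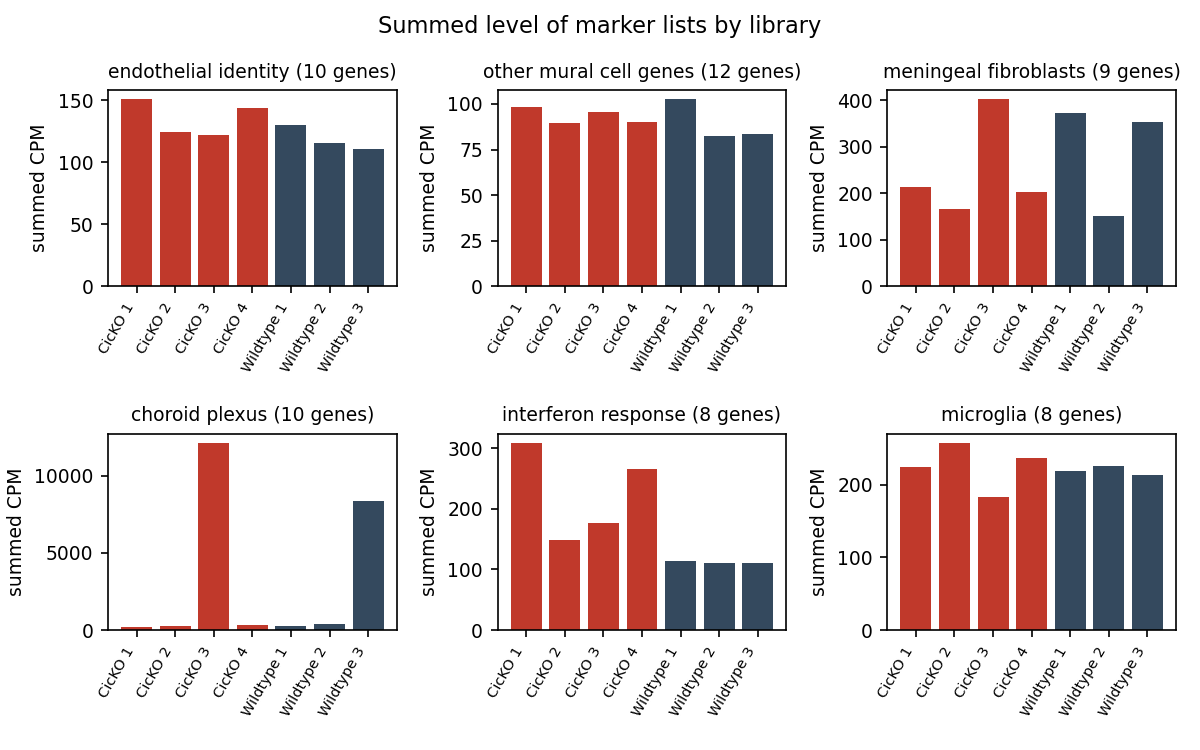
Summed CPM of 6 marker lists in each library, with CicKO bars left of Wildtype bars. Choroid plexus markers are high in CicKO 3 and Wildtype 3, meningeal markers in CicKO 3, Wildtype 1 and Wildtype 3, and interferon markers in CicKO 1 and CicKO 4.

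Around the members, 4 other genes of vessel-related lists passed the test. Among 18 angiogenic ligands and receptors 1 was called higher and 0 lower in edgeR, against the 1.25% and 0.828% of all tested genes. This was Angpt1, on chromosome 15 (42424723 to 42676977), the ligand that activates Tek and stabilises vessels. It was at 17.8, 19.8, 20.2 and 20.8 CPM in CicKO libraries, against 14.3, 11.2 and 14.5 CPM in Wildtype libraries. All CicKO libraries were above all Wildtype libraries (fold 1.47, log2 fold change 0.56, SE 0.103, adjusted p = 0.0355). In edgeR the Angpt1 call was lost without CicKO 1, CicKO 2 or CicKO 4 (adjusted p = 0.0698, 0.0917 and 0.107), without Wildtype 1 or Wildtype 3 (0.101 and 0.0892) and without both libraries numbered 3 (0.0542). Of its exon length 14.2% overlaps a gene model on the other strand.

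Vegfa, the ligand of Kdr and Flt1, was at 137, 125, 122 and 141 CPM in CicKO and 102, 114 and 101 CPM in Wildtype libraries. The groups did not overlap, but it was not called with all libraries (log2 fold change 0.31, SE 0.0684, adjusted p = 0.0618 in edgeR). Of the 18 angiogenic genes, 3 lay wholly above and 1 wholly below, against 7.06% and 8.36% of all tested genes. At an unadjusted p below 0.05 in edgeR, 4 (22.2%) were higher and 1 lower, against 8.06% and 8.16% of all tested genes. DESeq2 called 3 of the 18 higher, Angpt1 and Vegfa among them, and 0 lower. Its shares were 3.95% and 2.92% of the 17033 genes to which it gave an adjusted p. Vegfa passed without CicKO 3 (adjusted p = 0.0239), without Wildtype 2 (0.0380), with library size only (0.0364) and in DESeq2 (0.00146).

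Among 12 junction partners 1 was called higher and 0 lower, against 1.25% and 0.828% of all tested genes. A positive log2 fold change was seen for 4 of the 12, and 1 lay wholly above and 2 wholly below, against 7.06% and 8.36% of all tested genes. Cgn, which encodes the tight junction scaffold cingulin on chromosome 3 (94760069 to 94786492), was at 26.6, 25, 32 and 28.4 CPM in CicKO libraries, against 20.8, 21.1 and 20.9 CPM in Wildtype libraries. The groups did not overlap, with CicKO 3 highest (fold 1.34, log2 fold change 0.42, SE 0.0828, adjusted p = 0.0439). In edgeR the Cgn call was lost without CicKO 1 or CicKO 4 (adjusted p = 0.102 and 0.123), without Wildtype 1, Wildtype 2 or Wildtype 3 (0.165, 0.0651 and 0.164), without both libraries numbered 3 (0.0669) and with library size only (0.0586). Cingulin is made by epithelia as well as endothelium, and choroid plexus content was highest in CicKO 3. It was also high in Wildtype 3 (8353 CPM), where Cgn was at 20.9 CPM, between the other Wildtype libraries. The part of choroid plexus in the Cgn level was not tested. Jup, the junction plaque protein plakoglobin, averaged 146 ± 2.98 CPM in CicKO and 175 ± 18.2 CPM in Wildtype libraries (log2 fold change -0.26, adjusted p = 0.0895 in edgeR and 0.0118 in DESeq2).

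Among 12 arterial, venous and fenestrated vessel genes 0 were called higher and 2 lower, against 1.25% and 0.828% of all tested genes. In the same list 0 lay wholly above and 2 wholly below, against 7.06% and 8.36% of all tested genes. Efnb2, which encodes the arterial ligand ephrin-B2 and is also made by neural cells, fell to 27.2, 28.6, 27.0 and 27.3 CPM in CicKO libraries, against 33.6, 33.1 and 32.6 CPM in Wildtype libraries. It lies on chromosome 8 (8617434 to 8661242), and its groups were well separated by a small step (log2 fold change -0.27, SE 0.0460, adjusted p = 0.0278). The Efnb2 call was lost with the replicate block (its adjusted p was 0.0648), in edgeR without CicKO 1, CicKO 2 or CicKO 4 (0.105, 0.0602 and 0.0942), without Wildtype 1 or Wildtype 3 (0.122 and 0.10) and without both libraries numbered 3 (0.0753).

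Nr2f2, the venous fate factor COUP-TFII that is also found in neurons, was at 11.5, 10.6, 12.9 and 12.7 CPM in CicKO libraries, against 15.4, 15.7 and 16.4 CPM in Wildtype libraries. It lies on chromosome 7 (70351944 to 70366735), and its groups did not overlap (log2 fold change -0.41, SE 0.0838, adjusted p = 0.0492). The Nr2f2 call was lost in edgeR without CicKO 1, CicKO 2 or CicKO 4 (adjusted p = 0.146, 0.102 and 0.104), without Wildtype 1, Wildtype 2 or Wildtype 3 (0.157, 0.0677 and 0.194), without both libraries numbered 3 (0.0774), with library size only (0.0586) and with size factors of the DESeq2 type (0.0519). Which cells of the cerebellum carried the differences in Efnb2 and Nr2f2 was not tested.

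**Figure D5:**
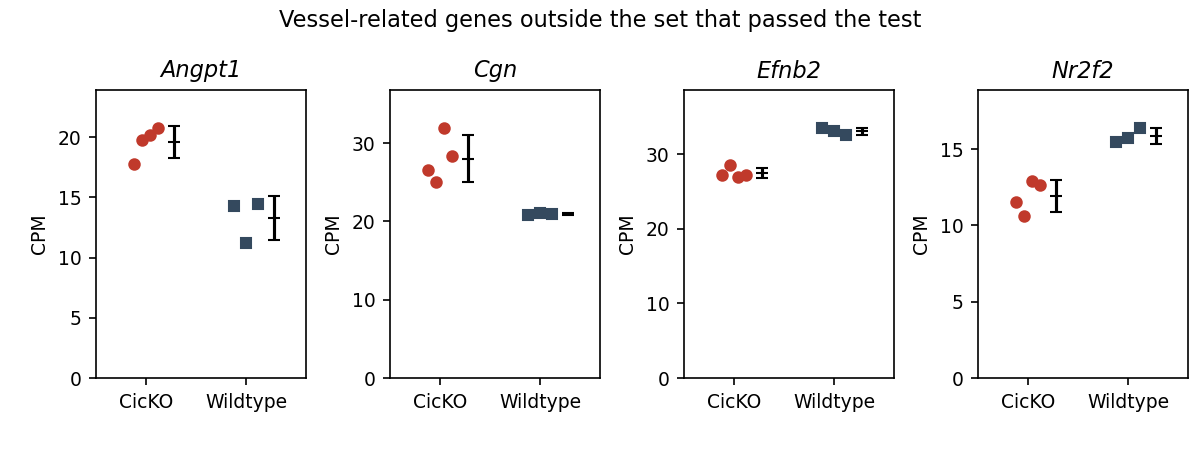
CPM of Angpt1, Cgn, Efnb2 and Nr2f2 per library, CicKO left of Wildtype, with the mean and SD beside the points (n = 4 and 3). The groups do not overlap for any of these genes, with Angpt1 and Cgn higher and Efnb2 and Nr2f2 lower in CicKO. The genes are shown because they were called. Of all tested genes 7.06% lay wholly above and 8.36% wholly below.

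The Wnt programme of the barrier gave 0 of 18 calls in edgeR, against 2.08% of all tested genes in either direction. At an unadjusted p below 0.05 in edgeR, 3 (16.7%) were higher and 0 lower, against 8.06% and 8.16% of all tested genes. DESeq2 called 2 higher and 0 lower, against 3.95% and 2.92% of the 17033 genes to which it gave an adjusted p. The median of the 18 log2 fold changes was 0.09. Apcdd1, a Wnt inhibitor and target in brain endothelium, was at 19.8, 15.8, 16.5 and 20.1 CPM in CicKO and 14, 12.9 and 14.2 CPM in Wildtype libraries (log2 fold change 0.40, adjusted p = 0.0970 in edgeR and 0.00868 in DESeq2). Axin2, a general target of the pathway, averaged 26.8 ± 1.88 CPM in CicKO and 21.5 ± 1.75 CPM in Wildtype libraries (log2 fold change 0.32, adjusted p = 0.0823 in edgeR). Axin2 passed in DESeq2 (adjusted p = 0.00717) and when replicate number was a block (adjusted p = 0.0343). Both genes were among the 3 of 18 (16.7%) with every CicKO library above every Wildtype library, against 7.06% of all tested genes. The ligand genes Wnt7a and Wnt7b, which neural cells supply, had log2 fold changes of -0.01 and -0.11.

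Mural cell genes beyond the members gave 0 of 12 calls in edgeR and in DESeq2, with 6 of 12 positive. Of all tested genes edgeR called 2.08%. Of the 17033 genes with a DESeq2 adjusted p, DESeq2 called 3.95% higher and 2.92% lower. At an unadjusted p below 0.05 in edgeR, 2 (16.7%) were higher and 0 lower, against 8.06% and 8.16% of all tested genes. Des, the intermediate filament desmin, averaged 8.25 ± 1.20 CPM in CicKO and 6.21 ± 1.36 CPM in Wildtype libraries. Atp13a5, a pericyte ATPase, averaged 15.1 ± 1.59 CPM in CicKO and 12 ± 1.98 CPM in Wildtype libraries. Pdgfrb, the receptor that defines pericytes, had a log2 fold change of -0.04 (adjusted p = 0.899).

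Markers of endothelial activation gave 0 calls in edgeR and in DESeq2 among the 8 of 10 that were tested. Of all tested genes edgeR called 2.08%. Of the 17033 genes with a DESeq2 adjusted p, DESeq2 called 3.95% higher and 2.92% lower. At an unadjusted p below 0.05 in edgeR, 1 activation gene (12.5%) was higher and 0 lower, against 8.06% and 8.16% of all tested genes. That gene was Socs3, a feedback inhibitor of cytokine signalling, at 2.16 ± 0.405 CPM in CicKO and 1.51 ± 0.335 CPM in Wildtype libraries (adjusted p = 0.276). Lcn2, an acute-phase gene, averaged 0.596 ± 0.299 CPM in CicKO and 0.313 ± 0.163 CPM in Wildtype libraries. The leukocyte adhesion receptors Icam1 and Vcam1 had log2 fold changes of 0.17 and 0.04, and the selectins Sele and Selp had at most 9 counts in any library and were not tested.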

How the data were processed

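RNA of cerebellum in 4 CicKO and 3 Wildtype libraries was amplified from poly(A) and random primers and sequenced on an Illumina HiSeq, per the labels' protocols. The deposited files hold the authors' raw counts for each gene symbol, 1 file per library. STAR 2.5.3a, HTSeq and DESeq2 with build mm10 are named in the submitters' processing notes, and the annotation and strand setting were not given in the sources used here. The 5 HTSeq summary rows stayed out of library sizes and tests, with reads assigned to no feature at 18.2% to 19.0% of entries in CicKO and 16.0% to 18.6% in Wildtype libraries. At 102653765 to 121285349 gene counts, 3 counts equal 0.0247 to 0.0292 CPM, which covers counting error only, since amplified reads are not independent molecules. Nothing states that libraries are separate animals, so p-values measure the spread between libraries, which may be technical. No 2 libraries of the same group agreed within sampling noise.

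Genes were kept by filterByExpr (16905 of 24421), scaled by TMM and tested in edgeR 4.0.16 (R 4.3.3) with the robust quasi-likelihood F test, a single genotype term and Benjamini-Hochberg adjustment over all genes; adjusted p-values are from this test unless another tool is named. DESeq2 1.42.0 was an alternative, beside RLE size factors, library size only, no filter, the replicate block and left-out libraries. Standard errors are the absolute log2 fold change over the square root of F. The scripts were tested on simulated counts. Lengths and positions are from GENCODE M21 (GRCm38, called mm10), and promoters from RefSeq GRCm38.p6. Named genes are Cic, the 31 members, and in each vessel-related list the genes called and the 2 with the smallest adjusted p. Members and lists were chosen with earlier results of these data known. Gabra6, Dcn, Pdgfrb, Icam1, Vcam1, Wnt7a, Wnt7b and Alas2 were added as context after their values were seen.

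Both groups have libraries numbered 1 to 3. After removal of the group means, the 3 pairs with equal numbers had correlations of 0.145, 0.288 and 0.713 over genes, each above the limit of 0.1 taken as pairing. Some differently numbered libraries passed that limit as well: CicKO 1 with Wildtype 2 (0.319), and CicKO 4 with Wildtype 1 (0.187) and Wildtype 2 (0.297). The limit therefore does not show that equal numbers are pairs, and no label says what a number stands for.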

Additional observations from a re-analysis of the deposited data

Results flagged for a closer look

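Of 46 gene levels examined in the 4 CicKO libraries, 1 had a library set apart from the others by most of the group's range. Slco1a4 was at 45.1 CPM in CicKO 2, against 59.2 to 61.7 CPM in the other CicKO libraries, a gap of 0.848 of the whole range, above the Dixon limit for 4 samples. Chance alone sets apart about 5% of such groups. Groups of 3 libraries were not examined in this way.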

How the results depend on the processing

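Across 13 alternatives, 382 of 403 member values kept their sign and their side of the threshold, 3 passed it (all Slco1a4) and 18 changed sign. The median log2 fold change of the members stayed at 0.15 to 0.24 when single libraries were left out. DESeq2 called 673 genes higher and 497 lower over all genes, against 212 and 140 in edgeR, and 1 member higher; the replicate block also called 1 member higher and changed no other member's call. Leaving out single libraries gave 65 to 493 genes called higher, 21 to 349 lower and 0 to 1 members higher (1 without CicKO 2). The lowest counts were without CicKO 1 and the highest without CicKO 3. The cause was not tested. Slc2a1 had -0.0016 with library size only, -0.0037 with no filter, -0.017 with the replicate block and -0.045 to 0.039 over left-out libraries. Slc16a1 had 0.013 with the replicate block, 0.041 without both libraries numbered 3 and -0.075 to 0.029 over left-out libraries. Over left-out libraries Mfsd2a ran from -0.0038 to 0.29, Itm2a from -0.032 to 0.17, Abcg2 from -0.012 to 0.12, Cdh5 from -0.072 to 0.36, Vtn from -0.33 to 0.23 and Anpep from -0.47 to 0.090. Of the values of 14 other named genes, 144 kept their call, 30 lost it, 8 gained it and 0 changed sign.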

Other observations

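Of 2 tested red cell genes 0 were called higher and 1 lower, against 1.25% and 0.828% of all tested genes. The blood content of the vessels was not tested. Slc4a1, which encodes the anion exchanger of red cells, was at 0.827, 0.480, 0.747 and 0.561 CPM in CicKO libraries, against 2.10, 1.94 and 1.98 CPM in Wildtype libraries. The groups did not overlap (log2 fold change -1.62, SE 0.211, edgeR adjusted p = 0.00946, or 0.0530 without Wildtype 1). Alas2, the haem synthesis enzyme of red cells, averaged 3.36 ± 1.01 CPM in CicKO and 3.55 ± 0.526 CPM in Wildtype libraries (log2 fold change -0.08, edgeR adjusted p = 0.903). The haemoglobin genes Hba-a1, Hba-a2, Hbb-bs and Hbb-bt were listed at 0 in all libraries. The cause was not tested, so the zeros do not show whether their RNA was present.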
